A study of Mus musculus with 21 samples.

Results

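The transcripts of 8 genes of the nuclear lamina and inner nuclear membrane (Lmna, Lmnb1, Lmnb2, Lbr, Emd, Tmpo, Lemd3 and Banf1) were examined in mouse germ cell preparations from the start of meiosis. They were chosen by gene name from an RNA-seq table of 37620 genes, and all 8 were found in it. The study mapped binding sites of PRDM9, the protein that places meiotic recombination hotspots, and set hotspots beside genome regions bound to Lamin B1, the product of Lmnb1. Those regions had been reported in mouse and human cell lines, not in these germ cells. They, the binding data and the histone marks were not analysed here. The RNA-seq samples are wild-type (wt) C57BL/6J (B6) mice at 12 dpp (days post-partum), and their labels carry 4 sample numbers (186wt, 343wt, then 444wt and also 456wt), each sequenced as 3 libraries. No treatment or other genotype enters the comparison. The labels call the cells spermatocytes, and the preparation is a germ cell enrichment after collagenase and trypsin digestion. Markers of Sertoli cells, a somatic cell type of the testis, were abundant in it (values below). The levels given here are therefore those of a mixed preparation. RNA came from 4 replicate preparations, as many as there are sample numbers, so one RNA may stand behind all 3 libraries of a number. The animals behind each preparation are not given in the sources used here.

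The nuclear lamina is a meshwork of intermediate filament proteins, the A-type lamins from Lmna and the B-type lamins from Lmnb1 and Lmnb2, that lines the inner nuclear membrane and holds inactive chromatin at the nuclear edge. The lamin B receptor, from Lbr, is a membrane-spanning protein that binds B-type lamins and heterochromatin protein HP1 and also works as a sterol reductase. Emerin (Emd), the lamina-associated polypeptides of Tmpo and MAN1 (Lemd3) carry a LEM domain, which binds the DNA-bridging protein BAF, from Banf1. Male germ cells are known for a reduced lamina: spermatocytes make a short A-type lamin, lamin C2, from an alternative first exon of Lmna, and spermatids make a short B-type lamin, lamin B3, from Lmnb2.

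RefSeq promoter windows, the 250 bases before a start in GRCm38.p6, were at hand for 7 members in 11 windows. The 4 below belong to the 3 members whose levels varied most between sample numbers, and the pair for Lmna shows that its starts differ in sequence. Capitals mark GGGCGG, the GC box that Sp1 binds, and CCAAT, each read on either strand (CCGCCC and ATTGG on the other), and no capital stretches overlap. The upstream Lmna window is chr3:88503353-88503602 on the minus strand, the internal one chr3:88493313-88493562 on the minus strand, the Lbr window chr1:181842402-181842651 on the minus strand and the Emd window chrX:74254437-74254686 on the plus strand. Each is written 5′ to 3′ along its gene.
Lmna upstream: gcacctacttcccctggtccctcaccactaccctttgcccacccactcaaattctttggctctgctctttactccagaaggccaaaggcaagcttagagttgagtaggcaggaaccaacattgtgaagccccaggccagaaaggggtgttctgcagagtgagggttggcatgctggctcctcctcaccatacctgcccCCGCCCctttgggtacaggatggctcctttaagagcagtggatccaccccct
Lmna internal: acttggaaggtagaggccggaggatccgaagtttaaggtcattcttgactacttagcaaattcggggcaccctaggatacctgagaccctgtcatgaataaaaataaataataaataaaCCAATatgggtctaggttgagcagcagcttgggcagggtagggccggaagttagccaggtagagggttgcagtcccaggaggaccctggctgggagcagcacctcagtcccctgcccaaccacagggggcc
Lbr: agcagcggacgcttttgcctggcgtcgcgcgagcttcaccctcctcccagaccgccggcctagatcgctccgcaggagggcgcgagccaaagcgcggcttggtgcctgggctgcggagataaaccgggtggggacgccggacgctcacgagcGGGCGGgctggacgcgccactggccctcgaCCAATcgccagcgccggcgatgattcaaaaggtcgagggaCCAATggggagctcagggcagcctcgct
Emd: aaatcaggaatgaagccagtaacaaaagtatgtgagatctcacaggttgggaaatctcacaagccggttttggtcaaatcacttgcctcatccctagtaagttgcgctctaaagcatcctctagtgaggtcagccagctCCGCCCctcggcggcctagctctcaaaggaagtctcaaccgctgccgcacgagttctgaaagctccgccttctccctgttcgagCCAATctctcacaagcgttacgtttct

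The upstream Lmna window held 1 CpG pair and 1 GC box, and the internal window held 4 CpG pairs, no GC box and 1 CCAAT. Lbr, in contrast, held 31 CpG pairs, 1 GC box and 2 CCAAT, and Emd held 12 CpG pairs and 1 of each motif. The median of all 32851 windows was 6 CpG pairs. Over the 11 windows of members, GGGCGG was present in 8, CCAAT in 6 and TATAAA, searched on both strands too, in 0, against 32.7%, 33.8% and 12.4% of all windows. These are matches of letters and say nothing of whether a factor bound there. The starts behind the 2 Lmna windows were 10040 bp apart. In the annotation of NCBI build 37, the build of the expression values, Lmna lies on the minus strand at chr3:88285070-88313878. Its transcript Lmna-001 has 12 exons and Lmna-003 has 10, of which 8 have the same bounds. The first exon of Lmna-003, chr3:88297159-88297234, lies in intron 1 of Lmna-001, and the 5′ ends are 10023 bp apart. An internal start of this kind is the known arrangement for lamin C2. The deposited values sum all transcripts of a gene, so lamin C2 and lamin B3 could not be told apart here from the other products of Lmna and Lmnb2.

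All 8 genes were transcribed at more than 10 FPKM (fragments per kilobase of transcript and per mega-fragment of the library, a level per length) in each of the 12 libraries. Means and SDs are over the 4 sample numbers (n = 4), each the average of its 3 libraries. Banf1 was highest at 125.7 ± 10.3 FPKM, above 97.6% of the genes whose mean reached 0.1 FPKM. Tmpo followed at 60.96 ± 4.66, Lmnb1 at 44.8 ± 2.91, Emd at 36.4 ± 5.90 and Lbr at 29.8 ± 4.97 FPKM. Lmna at 14.7 ± 4.36, Lemd3 at 13.9 ± 0.742 and Lmnb2 at 11.6 ± 0.141 FPKM were lowest, and even Lmnb2 stood above 63.2% of those genes. Within a library, Banf1 was above Tmpo, Tmpo above Lmnb1, Emd above Lbr, Lbr above Lmna and Lemd3 above Lmnb2 in 12 of 12 libraries. Lmnb1 was above Emd in 10 of 12 libraries, with a log2 ratio of 0.31 ± 0.30 (SD, n = 4), so this step of the order was about as large as its spread. Lmna and Lemd3 could not be ordered: Lmna was the higher in 5 of 12 libraries and 2 of 4 numbers, with a log2 ratio of 0.04 ± 0.45.

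**Figure D1:**
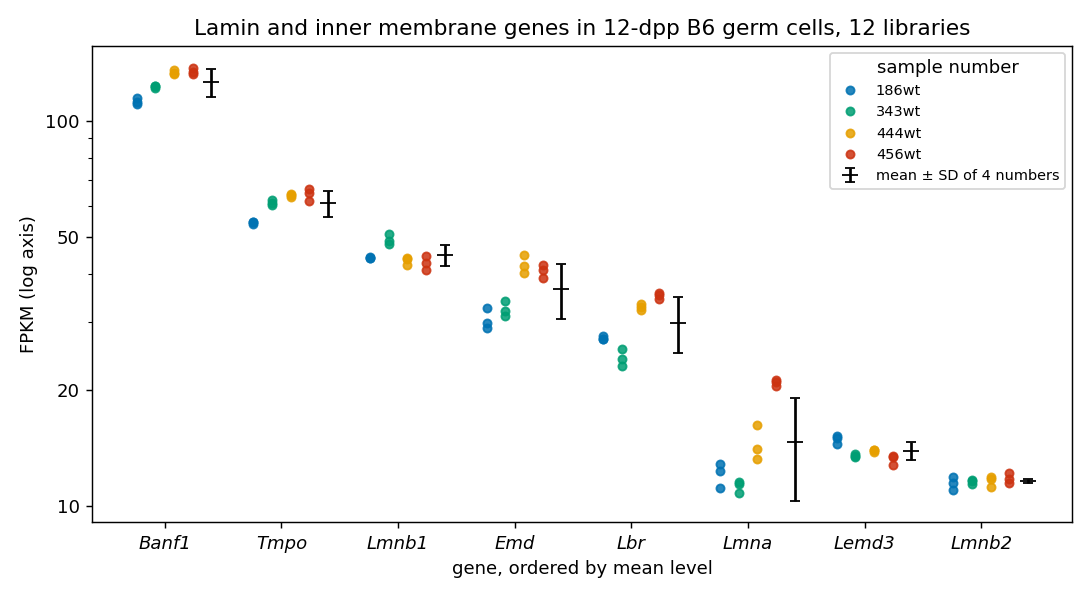
FPKM (log axis) of the 8 genes in 12 libraries, coloured by sample number, with the mean ± SD of the 4 numbers in black. Banf1 sits between 110.6 and 137.3 FPKM and Lmnb2 between 11.01 and 12.18 in every library, and the points of Lmna from 456wt stand apart from its others.

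The estimated depth was 12.9 to 18.1 M (mega) mapped fragments per library (median 15.0 M), so reads that did not map are outside it. The FPKM sum and the markers of the testis cell types differed between numbers, and 58.2% of the 20795 genes whose mean reached 0.1 FPKM varied over the 4 numbers at an adjusted p under 0.05 (limma's F-test on log2(FPKM + 0.1), Benjamini-Hochberg adjustment over all those genes). Among the 8227 genes averaging 10 FPKM or more, where all the members lie, the share was 84.5%. The median gene was higher in 444wt than in 343wt by 0.14 and in 456wt than in 343wt by 0.11 on the log2 scale. In the other 4 pairs of numbers it moved by less than 0.1. These p-values measure the spread between the libraries of a number, which may be technical, so they compare these 4 samples. In bulk RNA, fewer cells of a type and less RNA per cell cannot be told apart.

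Of the 8 members, 7 differed between the sample numbers, a share close to the 84.5% of genes at such levels, and Lmnb2 was the exception. The median difference between the highest and the lowest number was 0.25 on the log2 scale over the members and 0.55 over all genes tested, or 0.33 over those averaging 10 FPKM or more. The CV over the 4 numbers ran from 1.21% for Lmnb2 to 29.7% for Lmna, with Lbr at 16.7% and Emd at 16.2% next below Lmna and the other 4 members between 5.34% and 8.23%.

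Among the lamins, the A-type gene varied most between the sample numbers, and Lmnb1 varied by up to 0.20 on the log2 scale. No difference was detected for Lmnb2 in the deposited values. Lmna was at 12.32, 11.12 and 12.81 FPKM in the libraries of 186wt, at 10.8, 11.55 and 11.41 in 343wt, at 14.04, 16.23 and 13.2 in 444wt and at 20.97, 20.48 and 21.18 in 456wt. The 3 libraries of 456wt were above all others, those of 444wt lay next, and those of 186wt and 343wt overlapped. Against 343wt, the log2 difference of 456wt was 0.89 (SE 0.07, limma adjusted p = 1.78e-06), a 1.85-fold difference. Against 186wt it was 0.79 and against 444wt 0.53 (adjusted p = 4.72e-06 and 0.000253). Without 456wt, Lmna still differed between the other 3 numbers (F-test adjusted p = 0.0119). Lmna in 444wt was above 186wt by 0.26 (adjusted p = 0.0141), a call that was lost when the libraries were rescaled by the median ratio (adjusted p = 0.0949).

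Lmnb1 was at 44.14, 43.94 and 43.98 FPKM in 186wt, 48.62, 50.84 and 47.7 in 343wt, 43.69, 42.21 and 44.07 in 444wt and 40.82, 42.68 and 44.48 in 456wt. The libraries of 343wt were above all others, and the other 3 numbers overlapped. Lmnb1 was higher in 343wt than in 186wt by 0.16, and lower than 343wt in 444wt and 456wt, with log2 differences of -0.18 and -0.20 (limma adjusted p = 0.00790, 0.00110 and 0.000562). Its F-test passed at an adjusted p of 0.00124 and was lost without 343wt (0.510). After rescaling by the median ratio, Lmnb1 was also lower in 444wt and 456wt than in 186wt, with log2 differences of -0.11 and -0.12 (adjusted p = 0.0206 and 0.0147). Lmnb2 was at 11.89, 11.01 and 11.46 FPKM in 186wt, 11.42, 11.62 and 11.68 in 343wt, 11.21, 11.74 and 11.85 in 444wt and 12.18, 11.48 and 11.72 in 456wt. All 4 numbers overlapped. Its widest difference was 0.04 with a 95% interval of -0.05 to 0.14 (456wt minus 186wt), and the F-test gave an adjusted p of 0.834. After rescaling by the median ratio the F-test still did not call it (adjusted p = 0.159). In that scaling Lmnb2 was called lower in 444wt than in 343wt (log2 difference -0.12, limma adjusted p = 0.0494).

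The make-up of the lamin transcripts shifted accordingly. Lmna gave 17.9% of the summed lamin FPKM in 186wt, 15.7% in 343wt, 20.9% in 444wt and 27.7% in 456wt, a mean of 20.5% ± 5.25 (SD, n = 4). The lowest library of 456wt, at 27.4%, was above the highest of any other number, 23.1% in 444wt. Lmnb1 held 65.2%, 68.2%, 62.4% and 56.6% and Lmnb2 17.0%, 16.1%, 16.7% and 15.7% in the same order of numbers. Lmnb1 was thus 4.36 times Lmna in 343wt and 2.04 times Lmna in 456wt, and remained the main lamin transcript in all 12 libraries. The sum of the 3 genes was 67.6, 71.9, 69.4 and 75.3 FPKM in the same order. Each share is a ratio within a library, so it does not depend on scaling between libraries.

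**Figure D2:**
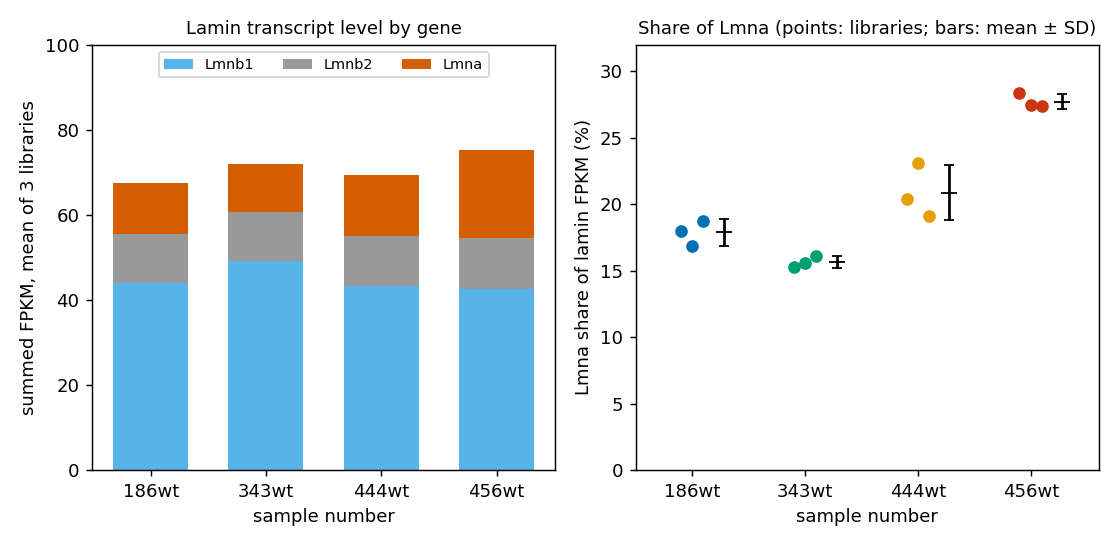
Left, the summed FPKM of Lmnb1, Lmnb2 and Lmna by sample number (stacked bars from 0, means of 3 libraries). Right, the share of Lmna in percent, with a point for each library and the mean ± SD of the 3 libraries; it runs from 15.7% in 343wt to 27.7% in 456wt.

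Lbr was at 27.08, 27.66 and 27.12 FPKM in 186wt, 23, 25.59 and 24.1 in 343wt, 33.42, 32.84 and 32.14 in 444wt and 35.67, 34.39 and 35.16 in 456wt. No 2 numbers overlapped, and the order of the numbers was that of the Lmna means. The log2 difference of 456wt from 343wt was 0.53 (SE 0.04, limma adjusted p = 4.08e-07). The step from 444wt to 456wt, 0.10, was not called (adjusted p = 0.0760), but passed after rescaling by the median ratio (0.11, adjusted p = 0.0423). Lbr stood at 2.27, 2.15 and 2.28 times Lmna in 186wt, 343wt and 444wt and at 1.68 times in 456wt, and the lowest library outside 456wt was at 2.02. Relative to Lmnb1, whose protein it binds, it went from 0.494 in 343wt to 0.823 in 456wt.

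Of the LEM-domain genes, Emd and Tmpo were lowest in 186wt while Lemd3 was highest there. Emd was at 32.54, 28.91 and 29.86 FPKM in 186wt, 34.08, 32 and 31.07 in 343wt, 40.2, 41.85 and 44.75 in 444wt and 40.84, 42.11 and 39.04 in 456wt. Its libraries thus fell into a lower pair of numbers (186wt and 343wt) and a higher pair (444wt and 456wt), with overlap within each pair and none between them. The log2 difference of 444wt from 186wt was 0.47 (SE 0.05, limma adjusted p = 2.49e-05). Within the pairs it was 0.09 and -0.05 (343wt minus 186wt and 456wt minus 444wt, adjusted p = 0.293 and 0.509). The intervals of those differences were -0.03 to 0.21 and -0.17 to 0.06.

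Tmpo was at 54.55, 53.89 and 54.38 FPKM in 186wt, 61.03, 62.17 and 60.52 in 343wt, 64.03, 63.48 and 64.34 in 444wt and 64.68, 66.43 and 61.96 in 456wt. The 186wt libraries lay below all others. The log2 differences from 186wt were 0.17, 0.24 and 0.24 for 343wt, 444wt and 456wt (limma adjusted p = 0.000530, 1.25e-05 and 1.02e-05). Lemd3, whose product also binds receptor-regulated SMAD proteins, was at 14.5, 15.19 and 15.01 FPKM in 186wt, 13.49, 13.42 and 13.64 in 343wt, 13.96, 13.97 and 13.82 in 444wt and 13.44, 12.76 and 13.37 in 456wt. Again 186wt stood apart, but on the high side, with log2 differences of -0.14, -0.10 and -0.17 for the other numbers against it (adjusted p = 0.0157, 0.0430 and 0.00176). Without 186wt, the F-test called neither Tmpo nor Lemd3 between the remaining numbers (adjusted p = 0.0903 and 0.222). With all numbers in the fit, Tmpo was called higher in 456wt than in 343wt by 0.07 (limma adjusted p = 0.0399). That call was lost after rescaling by the median ratio (adjusted p = 0.334). Rescaling added a lower Lemd3 in the same pair (-0.14, adjusted p = 0.00808).

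Banf1, whose product is bound by all 3 LEM-domain proteins, was at 114.71, 112.06 and 110.64 FPKM in 186wt, 121.36, 123.15 and 123.08 in 343wt, 135.3, 133.25 and 131.71 in 444wt and 133.74, 137.25 and 132.29 in 456wt. It was lowest in 186wt, higher in 343wt and higher again in 444wt and 456wt, which overlapped. The log2 difference of 456wt from 186wt was 0.26 (SE 0.02, limma adjusted p = 9.31e-07). The steps of 0.12 and 0.13 from 343wt to 444wt and 456wt were close to the shift of the median gene in the same pairs, and their calls were lost under median-ratio rescaling. Banf1 kept nearly the same ratio to the summed FPKM of Emd, Tmpo and Lemd3, 1.13 ± 0.0142 (SD, n = 4), from 1.11 in 444wt to 1.14 in 343wt. Tmpo made the largest part of that sum, and the ratio did not hold for each gene. Pearson's r with Banf1 on the log2 scale over the 12 libraries was 0.953 for Tmpo, 0.910 for Emd and -0.774 for Lemd3. Other LEM-domain genes were not part of the sum.

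Over the 6 pairs of numbers, 29 of 48 differences of members were called. Between 343wt and 186wt 5 members were called, 3 higher in 343wt (Lmnb1, Tmpo and Banf1) and 2 lower (Lbr and Lemd3), where 20.4% of all genes were called. Against 186wt, 6 members were called in 444wt and 6 in 456wt, in each case Lmna, Lbr, Emd, Tmpo and Banf1 higher and Lemd3 lower, beside 42.4% and 41.4% of all genes. These comparisons share the 186wt libraries. Against 343wt, 5 members were called in 444wt and 6 in 456wt, Lmnb1 being the one that was lower in both, beside 47.9% and 41.7% of all genes. Between 456wt and 444wt 1 member was called, Lmna, beside 28.2% of all genes, and rescaling by the median ratio added Lbr. Rescaling by the median ratio changed 9 of the 48 calls, and 0 differences called under both scalings had another sign. It moved the split of higher and lower calls to 4 and 2 for 444wt against 186wt, to 5 and 2 for 456wt against 186wt, and to 3 and 2 for both 444wt and 456wt against 343wt.

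**Figure D3:**
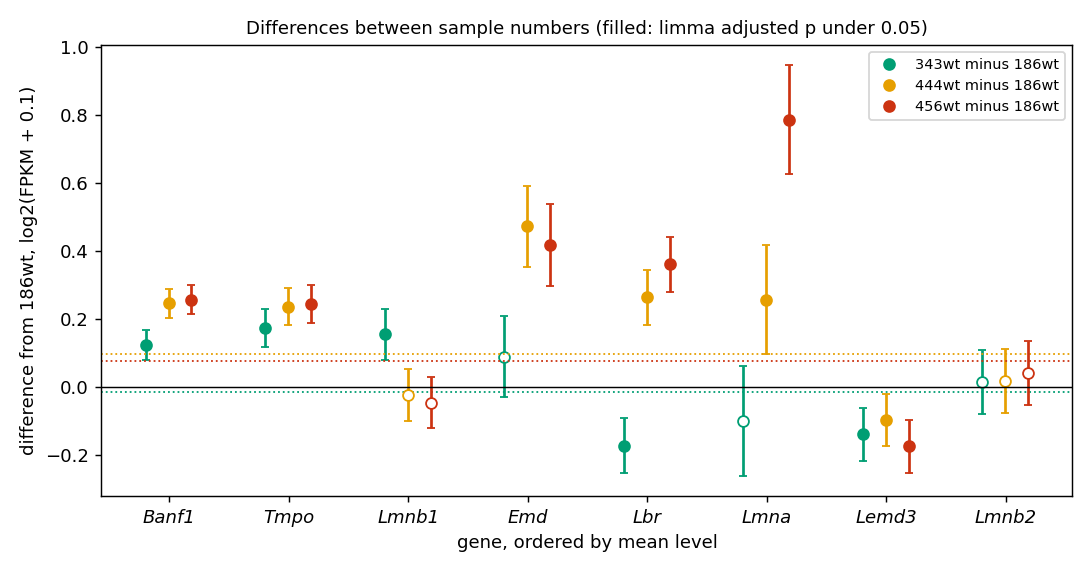
Difference of each gene from 186wt on the log2(FPKM + 0.1) scale for 343wt, 444wt and 456wt, with 95% intervals from limma. Filled points have an adjusted p under 0.05 and dotted lines mark the median of all genes; Lmna in 456wt reaches 0.79, and the 3 points of Lmnb2 have intervals that include 0.

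The summed peritubular myoid markers had the same order over the sample numbers as the means of Lmna and Lbr. For Lmna, the step between 343wt and 186wt was not called (log2 difference -0.10, limma adjusted p = 0.392). Of the single myoid markers, Des was lowest in 186wt (5.31 FPKM against 6.10 in 343wt), and the others were lowest in 343wt. The endothelial markers shared the peak in 456wt but were lowest in 444wt. All 5 peritubular myoid markers (Acta2 and other smooth muscle genes) and all 6 endothelial markers were highest in 456wt, beside 27.5% of all genes tested. The summed myoid markers ran over the libraries from 530.0 to 534.1 FPKM in 186wt, 250.8 to 255.7 in 343wt, 660.8 to 674.6 in 444wt and 1100 to 1120 in 456wt, which is also the order of Lmna and of Lbr. The summed endothelial markers were 17.5 to 18.3 FPKM in 186wt, 22.5 to 22.9 in 343wt, 14.0 to 15.2 in 444wt and 36.1 to 39.1 in 456wt. As background, A-type lamins are known to be abundant in contractile and connective cells. The part of these cells in the levels of Lmna and Lbr was not tested.

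The other lists were set beside Lmnb1 and Emd. All 5 Leydig and all 5 macrophage markers were highest in 343wt, beside 17.7% of all genes tested, and Lmnb1 was highest there too. Their second highest sums were those of 456wt, 59.9 and 15.4 FPKM, where Lmnb1 was lowest. Their lowest sums were those of 444wt, 15.8 FPKM for Leydig cells and 5.58 FPKM for macrophages, and their highest those of 343wt, 107.4 and 20.4 FPKM. The 8 Sertoli markers summed to 4027 and 4163 FPKM in 186wt and 343wt and to 2331 and 2491 FPKM in 444wt and 456wt, the reverse of the split in Emd. This sum was highest in 343wt as well, with 4 of the 8 markers highest there and 4 in 186wt (17.7% and 18.5% of all genes). The median Sertoli marker on the log2 scale rose in the order of the Lmnb1 means, from 456wt to 444wt, 186wt and 343wt. For Lmnb1 only the place of 343wt was resolved in the deposited values. Its differences among 186wt, 444wt and 456wt were not called (limma adjusted p = 0.319 to 0.680). The 8 spermatogonial markers, at 581.2, 604.0, 802.8 and 721.7 FPKM in the order of the numbers, split as Emd did. The highest mean was in 444wt for both, though for Emd the libraries of 444wt and 456wt overlapped. The 12 meiotic markers were at 503.1, 400.7, 661.7 and 485.9 FPKM, highest in 444wt for 11 of 12, beside 36.3% of all genes tested. The part of these cell types in the levels of Lmnb1 and Emd was not tested. Of the round spermatid markers, Prm2 was listed at 0 in all libraries, and the 5 together reached 2.48 FPKM in 444wt, their highest number. Markers of the cells that make lamin B3 were thus near the bottom of the scale. Markers of the labelled meiotic cells were present beside those of spermatogonia and Sertoli cells.

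**Figure D4:**
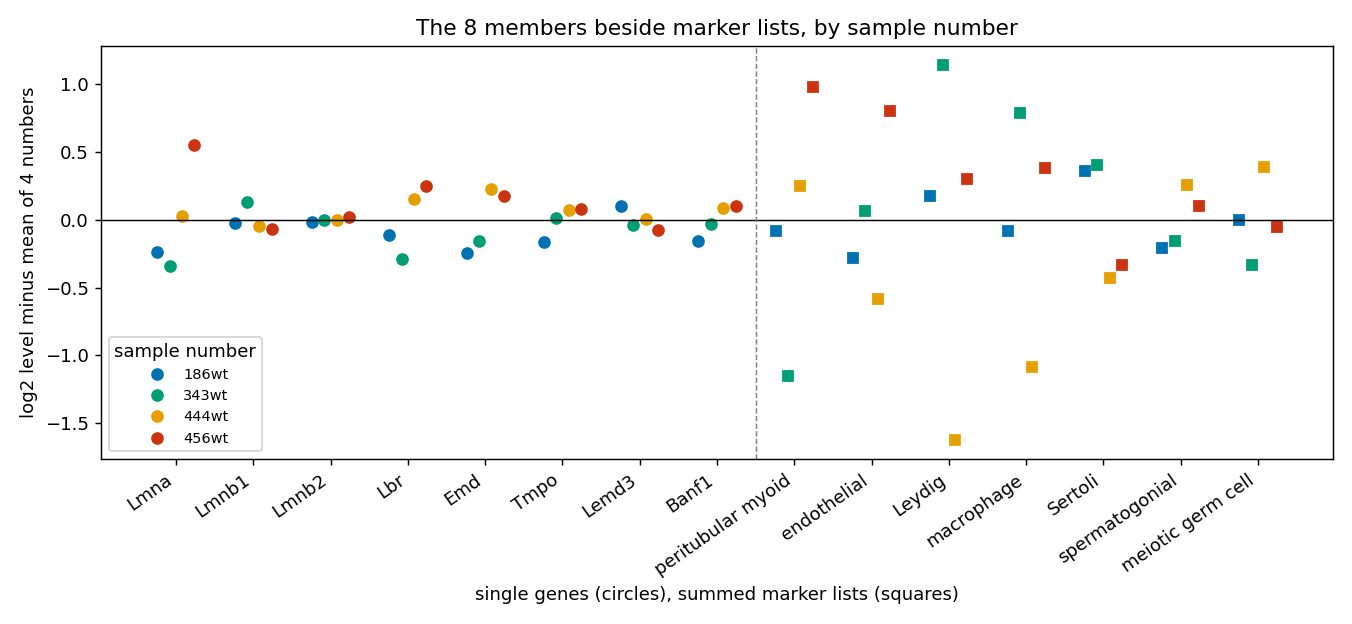
Log2 level of each of the 8 genes (circles) and of 7 summed marker lists (squares) by sample number, less the mean over the 4 numbers. Lmna, Lbr and the summed peritubular myoid list share the order 343wt, 186wt, 444wt, 456wt, though the Lmna libraries of 343wt and 186wt overlapped. The Sertoli list is low in 444wt and 456wt, where Emd is high.

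The genes whose pattern was most like that of a member were found by Pearson's r on the log2 scale over the 12 libraries, among 10401 genes that averaged 5 FPKM or more. The libraries of a number share a sample, so r mostly reflects 4 levels and is given as a description. For Lmna the nearest were Ppic, a cyclophilin (r = 0.987), Pltp, a phospholipid transfer protein (0.976), and Mmp2, a matrix metalloprotease (0.973). Mmp2 was at 10.3 FPKM in 343wt and at 27.6 FPKM in 456wt. For Lbr they were P4hb, a protein disulfide isomerase (r = 0.993), Fbxo32 (0.991) and Kctd15 (0.987). Emd was nearest to Cdca7 (r = 0.986), Ppih (0.980) and Nol6 (0.978). The 3 genes nearest to Tmpo were the ribosomal protein genes Rpl13a and Rpl4 and the translation initiation factor gene Eif3m, each at r = 0.966. Banf1 was nearest to Rpl23, Rpl4 and the chaperonin gene Cct5 (r = 0.984, 0.984 and 0.983). Lmnb1 was nearest to Prkci (r = 0.956), Cdk2ap1 and 2310011J03Rik, and Lemd3 to Zkscan3 (0.962), Arhgap12 and Nynrin. For Lmnb2, which hardly varied, the closest gene was Zfp955b at r = 0.812. Among the members themselves, r was 0.953 for Tmpo and Banf1, 0.910 for Emd and Banf1 and 0.877 for Lmna and Lbr, and -0.859 for Tmpo and Lemd3.

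The genes chosen as partners or relatives of the members spanned levels from 0.0158 to 46.6 FPKM. Of the 5 genes that process the farnesylated lamins, 4 differed between numbers, against 58.2% of all genes and 84.5% of those above 10 FPKM. The levels ran from 12.6 FPKM for Fntb, a farnesyltransferase subunit, to 31.1 FPKM for Fnta, its partner. Zmpste24, the protease that matures prelamin A, was at 18.7, 18.5, 14.5 and 16.3 FPKM in the order of the numbers (range 0.37 on the log2 scale, adjusted p = 6.37e-06), with its lower values in 444wt and 456wt, where those of Lmna were higher. The 10 other LEM-domain and inner membrane genes gave 11 rows, of which 9 differed. The higher of the 2 rows named Tor1aip2 was the top of this list at 46.6 FPKM. Lemd1 was lowest, at 0.231 FPKM. Of the genes listed as BAF partners, Vrk1, Vrk2 and Vrk3 all differed, with Vrk3 highest at 28.6 FPKM. Whether the product of Vrk3 acts on BAF was not tested. Banf2, a relative of Banf1 on the same list, was below the minimum at 0.0158 FPKM. The sterol reductase genes Tm7sf2, the closest relative of Lbr, and Dhcr7 averaged 8.49 and 41.7 FPKM, and both differed.

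The nuclear pore genes were described as another protein set of the same envelope. Of 30, 27 differed between numbers, close to the share of 84.5% among genes averaging 10 FPKM or more. Of the pore genes, 23 were highest in 444wt, where 36.3% of all genes tested were highest. The latter share includes genes down to 0.1 FPKM and was not computed for the higher genes alone. Among the 8 members, Emd alone had its highest mean in 444wt, though its difference from 456wt was not called (456wt minus 444wt -0.05, limma adjusted p = 0.509). The pore genes ranged from 4.54 FPKM for Nupl2 to 85.6 FPKM for Rae1, and their sum was 1095, 1081, 1326 and 1224 FPKM in the order of the numbers. The widest range was that of Nup210, a membrane-spanning pore protein, at 15.6 FPKM in 343wt against 31.7 FPKM in 444wt (1.01 on the log2 scale, limma adjusted p = 1.08e-06). Seh1l had the narrowest, 0.12 (adjusted p = 0.105).

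Lbr, with a single annotated transcript of 3551 bp, corresponded to about 1157 to 1762 fragments per library, a counting error of 2.38% to 2.94%, and the median CV of its 3 libraries within a number was 1.90%. For Lmnb1 the estimate was 1474 to 2239 fragments, a counting error of 2.11% to 2.60%, with a median CV of 2.78%. The coding transcripts of Lmna range from 785 to 3156 bp, which leaves its estimate between 84 and 924 fragments and its counting error between 3.29% and 10.9%, with a median CV of 5.37%. For Tmpo, Lemd3 and Banf1 the median CV was 1.03%, 1.62% and 1.59%, in each case below the estimated counting error, which was at least 1.61% for Tmpo and 3.02% for Banf1, so the fragment numbers are rough. For Lmnb2 and Emd it was 2.98% and 5.10%, against 3.80% to 6.96% and 3.40% to 7.07%. The estimates cover counting error only.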

How the data were processed

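RNA-seq of germ cell preparations from 4 B6 samples at 12 dpp, with 3 libraries each, was analysed. The authors mapped 100-bp reads to transcripts of NCBI build 37 (BowTie 0.12.9), kept those with fewer than 2 mismatches, and deposited gene-level FPKM from RSEM 1.2.8, rounded to 2 decimals. RSEM shares reads among transcripts, so genes with near-identical copies are less certain, and no strand setting is given in the sources used here. Every column of values was used.

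Libraries were averaged by sample number. Differences were tested on log2(FPKM + 0.1) by limma 3.58.1 under R 4.3.3, with a trended eBayes prior, in genes averaging 0.1 FPKM or more, with Benjamini-Hochberg adjustment over all of them (within each pair of numbers for the pairs). The scripts were tested on simulated data. A pseudocount understates changes of low genes. FPKM carry no counts, so depth was estimated from the smallest FPKM steps and transcript length over 1032 genes (14.3 to 14.7 M (mega) fragments, 95%, for the first library of 186wt). For the fragment numbers of the members, an assumed fragment length of 250 bp was taken off each transcript length. Positions come from GENCODE M1 on NCBI build 37 and promoter windows from RefSeq on GRCm38.p6. Positions were not converted between the builds.

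The members and gene lists were chosen with earlier results of these data known. All members are named. Of each other list, the highest, lowest, most and least variable genes could be named, and of the genes compared by pattern the 3 nearest to each member. Rhox5 and Meiob, 2 of the listed markers, have no row of that name. Alternatives were other pseudocounts, filters and scalings, limma without trend, a replicate block, and leaving out libraries or sample numbers. Python 3.11.15 (pandas 2.3.3, numpy 2.4.6, scipy 1.17.1) gave the other values and matplotlib 3.10.9 the plots.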

Additional observations from a re-analysis of the deposited data

How the results depend on the processing

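The count of members that differed between sample numbers was 7 under every other pseudocount, filter and scaling tried, without the trend, and without any 1 library. It was 5 without 186wt (Tmpo and Lemd3 lost) and 6 without 343wt (Lmnb1 lost), and Lmna, Lbr, Emd and Banf1 were called in each of these settings. The called pairs of members stayed between 25 and 30, the lowest being without 186wt replicate 2. No pairing of the samples by library number was seen. Between samples, correlations ran from -0.0407 to 0.0299 for same-numbered libraries and from -0.0338 to 0.0403 for differently numbered ones. These cover genes down to 0.1 FPKM, so a weak pairing could be missed. With library number as a replicate block, 27 pairs and 7 members were called. Rescaling by the median ratio lost the calls of Lmna (444wt minus 186wt), Tmpo (456wt minus 343wt) and Banf1 (444wt and 456wt minus 343wt), and added 5: Lmnb1 (444wt and 456wt minus 186wt), Lbr (456wt minus 444wt), Lemd3 (456wt minus 343wt) and Lmnb2 (444wt minus 343wt, log2 difference -0.12, adjusted p = 0.0494). The A-type share was 18.1% to 22.2% when a number was left out, the lowest being without 456wt. The libraries of a number may be technical repeats, and the 4 samples of one group carry no labelled contrast.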
